A study of Homo sapiens with 4 samples.

Results

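The genes described here encode the respiratory chain subunits and ATP synthase subunits that are read from nuclear DNA. They were taken by symbol: every gene whose name begins with NDUFA, NDUFB, NDUFC, NDUFS or NDUFV and a digit, the genes SDHA to SDHD, and those beginning with UQCR, with COX and a digit of 4 to 8, or with ATP5. Of the 14055 symbols listed in the tables of all 4 libraries, 81 met that rule (38 of complex I, 3 of complex II, 9 of complex III, 13 of complex IV and 18 of complex V). A further 6 symbols were listed for 1 replicate number only: NDUFB2-AS1 in replicate 1, and SDHD, COX4I2, COX6A2, COX4NB and NDUFC2-KCTD14 in replicate 2. Of the 81 genes, 79 were among the 11085 that reached 1 RPKM in at least 2 libraries and were tested. COX6B2 and COX7A1 did not reach that limit. All 79 are called subunits below, though some match the rule by name alone, such as ATP5S, ATP5SL and ATP5J2-PTCD1. RPKM counts a gene's reads relative to its length and to the depth of the library.

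RNA sequencing was done on Huh7, a human hepatoma cell line, at passage 3. The ISL1 group had received an ISL1-expressing lentivirus (2 libraries); ISL1 is a homeodomain factor known from the developing heart, spinal motor neurons and endocrine pancreas. The blank group had received a blank lentivirus (2 libraries). The labels give no clone, promoter or time after infection, and do not say whether duplicates came from separate cultures, so the p-values speak only of how far these libraries differ, which may be technical spread.

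The respiratory chain passes electrons from NADH (complex I) and succinate (complex II) through ubiquinone, complex III and cytochrome c to oxygen (complex IV), and pumps protons across the inner mitochondrial membrane on the way. ATP synthase, here called complex V, lets the protons back through a rotating ring of c subunits and makes ATP in its F1 head. Most subunits are encoded in the nucleus, and their genes are known as targets of NRF1, of the ETS factor GABP and of YY1.

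The library labels were checked first. ISL1 stood at 8.22 and 1801 RPKM in the ISL1 libraries of replicates 1 and 2, against 0.0454 and 0 RPKM in the blank libraries. The second ISL1 library bears the name of ISL2 in its title, and ISL2, a close relative, stood at 2.08 and 13.2 RPKM in the ISL1 libraries and at 4.57 and 3.23 RPKM in the blank ones. Depth, recovered from the steps between low values, was 29429964 to 37134267 reads per library. The tables of replicates 1 and 2 were made differently: reads behind the genes listed made up at least 37.1 to 37.3% of the depth in replicate 1 and at least 91.8 to 99.7% in replicate 2. Pearson's r across genes was 0.976 between the 2 libraries of replicate 1 and 0.931 between those of replicate 2, against 0.586 between the ISL1 libraries and 0.582 between the blank libraries. Each comparison is therefore given within a replicate number, as the difference in log2(RPKM + 1), ISL1 minus blank, a scale that understates the change of low genes. With 1 library per group there, those differences have no test.

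No subunit was called by the test over all 4 libraries, and the subunits leaned in opposite directions in the 2 replicates. In replicate 1, 57 of 79 stood higher in the ISL1 library and 22 lower, beside 49.4% of all tested genes higher and 50.6% lower. In replicate 2, 29 stood higher and 50 lower, beside 54.6% of all tested genes higher and 45.4% lower. The median difference over the subunits was 0.17 in replicate 1 and -0.17 in replicate 2, beside -0.00 and 0.06 over all genes tested. The lean was widest for ATP synthase, with medians of 0.21 and -0.36, and 17 of the 18 symbols counted under it lower in replicate 2. Without the symbols that match by name alone, 15 of 15 were lower there, and the medians were 0.24 and -0.39. Scaling the libraries by median ratios shifted the median of all genes in replicate 2 to -0.11 instead of 0.06, and that of the subunits to -0.37, with 66 of 79 lower. On either scale the subunits stood below the median of all genes in that replicate.

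**Figure D1:**
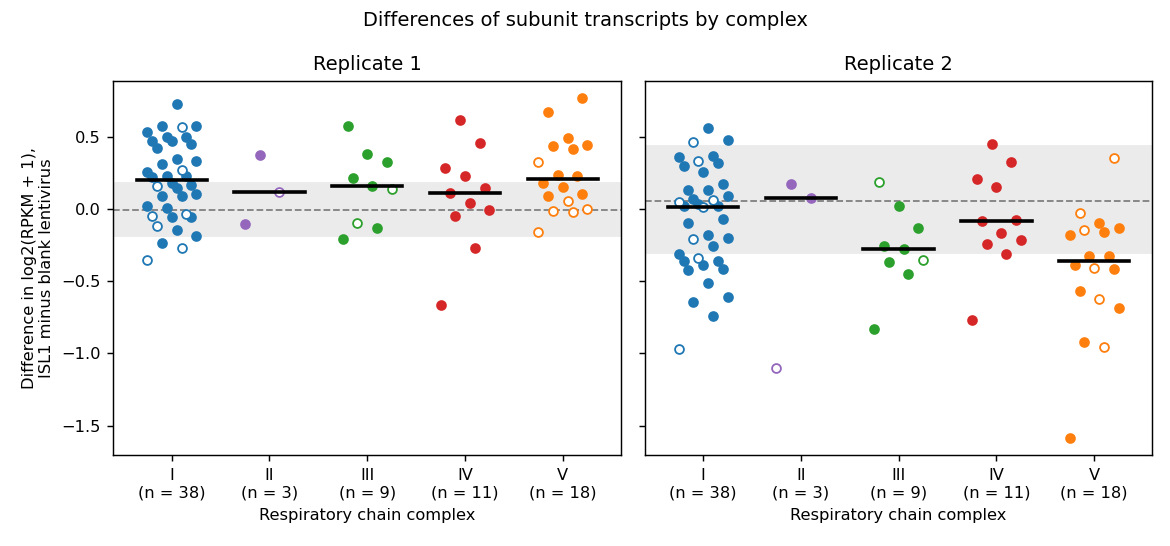
Difference in log2(RPKM + 1), ISL1 minus blank lentivirus, of the 79 tested subunits by complex in replicate 1 (left) and replicate 2 (right). Points are genes, open where the mean of the 2 libraries was under 5 RPKM in either replicate, black bars are medians, the dashed line is the median of all 11085 genes and the grey band their middle 50%. Complex V sits above that line in replicate 1 (median 0.21) and below it in replicate 2 (median -0.36), and the small positive medians of complexes I and II in replicate 2 (0.017 and 0.080) become negative with median-ratio scaling.

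Only 16 subunits stood higher with ISL1 in both replicates and 9 lower in both, which is 20.3% and 11.4% of the 79, beside 23.1% and 19.1% of all tested genes. Another 41 stood higher in replicate 1 and lower in replicate 2, which is 51.9%, beside 26.3% of all tested genes. The remaining 13 went the other way. Across the 79 subunits Pearson's r between the differences of replicate 1 and those of replicate 2 was -0.24 (genes are not independent replicates). Differences past 1.5-fold were few: 4 subunits were higher and 1 lower in replicate 1, beside 5.99% and 7.03% of all tested genes. In replicate 2 none was higher and 12 were lower, beside 17.8% and 12.3%. No subunit passed 1.5-fold on the same side in both replicates, beside 0.713% of all genes higher and 0.821% lower.

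**Figure D2:**
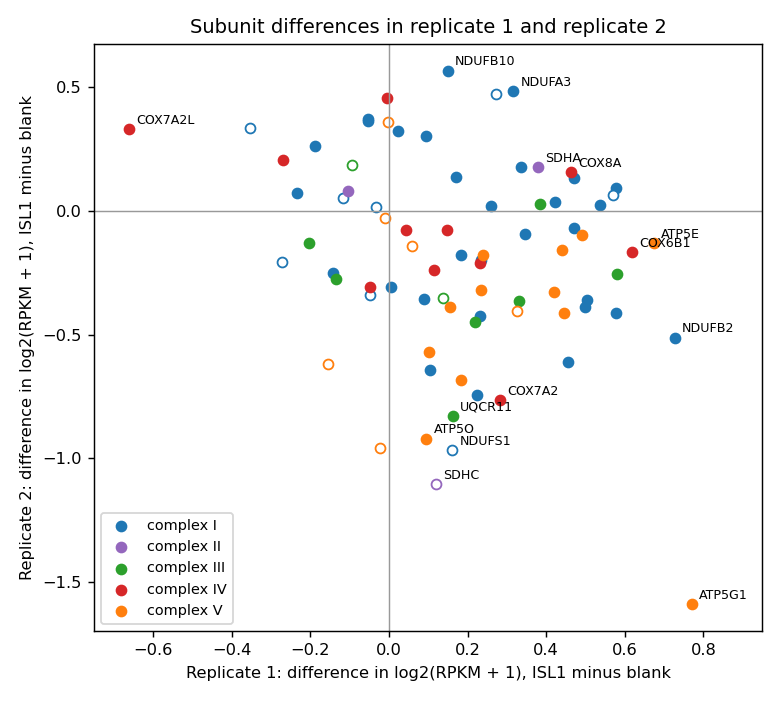
Each of the 79 tested subunits by its difference in replicate 1 (horizontal axis) and in replicate 2 (vertical axis), both as ISL1 minus blank in log2(RPKM + 1); open points have a mean under 5 RPKM in either replicate. The lower right field, higher in replicate 1 and lower in replicate 2, holds 41 of the 79 genes, 14 of them from complex V, with ATP5G1 farthest out.

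In the test over all 4 libraries, limma on log2(RPKM + 1) called 0 of the 11085 genes at an adjusted p of 0.05, and so none of the 79 subunits (background 0%). An unadjusted p under 0.05 was reached by 15 genes (0.135%) and by 0 subunits; with the replicate number as a block these counts were 260 genes (2.35%) and 0 subunits, again with 0 called. Without the block, the subunits with the smallest p were ATP5O (log2 fold change -0.41, SE 0.36), NDUFB10 (0.36, SE 0.33) and NDUFS6 (0.33, SE 0.31), each with a limma adjusted p of 1.00 (n = 2 per group). An SE without the block also takes in how far a gene's level differs between the tables of replicates 1 and 2. With the block the smallest unadjusted limma p belonged to ATP5S (0.127), SDHC (0.255) and NDUFA3 (0.269). Both ISL1 libraries lay above both blank libraries for 2 subunits, NDUFB10 and NDUFS6, beside 5.52% of all tested genes. Both lay below for 4 subunits, NDUFV2, UQCRC2, UQCRFS1 and COX5B, beside 5.08%.

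ATP synthase is taken first, and promoter stretches are shown for genes that stood higher in replicate 1 and lower in replicate 2 (ATP5G1, ATP5C1 and ATP5I) and for genes higher in both (COX8A and NDUFS6). Of the 81 genes, 65 had at least one promoter window in RefSeq (GRCh38.p14), 79 windows of 300 bases in all, from 250 bases before to 50 after an annotated start. The NRF1 core GCATGCG was found on either strand in 17.7% of these windows, beside 4.63% of all 22199 windows of protein-coding genes. The ETS core CCGGAAG was in 25.3% of them (12.8% of all), and the YY1 core AAGATGG in 24.1% (6.04% of all). The Sp1 box GGGCGG was about as frequent in both, at 60.8% and 56.3%. A match of letters is a description of the sequence, and the tables hold no binding data. The 150 bases directly upstream of the start are printed 5′ to 3′ on the gene's strand for 5 members, with NRF1 and ETS cores in capitals; the NRF1 core reads nearly alike on both strands, so overlapping matches give a run of one base more.
ATP5G1 (c subunit of ATP synthase, chr17:48892637-48892786, plus strand): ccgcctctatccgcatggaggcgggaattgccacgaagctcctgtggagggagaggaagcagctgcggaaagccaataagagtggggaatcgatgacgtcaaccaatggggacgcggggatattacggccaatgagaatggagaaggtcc
ATP5C1 (gamma subunit of F1, chr10:7788027-7788176, plus strand): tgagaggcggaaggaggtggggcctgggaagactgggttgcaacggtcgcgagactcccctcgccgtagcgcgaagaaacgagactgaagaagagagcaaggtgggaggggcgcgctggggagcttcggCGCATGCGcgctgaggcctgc
ATP5I (subunit e, chr4:674277-674426, minus strand): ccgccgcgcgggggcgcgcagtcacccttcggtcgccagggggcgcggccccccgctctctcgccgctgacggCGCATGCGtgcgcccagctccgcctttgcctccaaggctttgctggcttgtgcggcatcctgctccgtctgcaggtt
COX8A (complex IV subunit, chr11:63974470-63974619, plus strand): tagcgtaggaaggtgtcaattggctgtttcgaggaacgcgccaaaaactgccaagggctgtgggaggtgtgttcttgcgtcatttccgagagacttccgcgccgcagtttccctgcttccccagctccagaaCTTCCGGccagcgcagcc
NDUFS6 (complex I accessory subunit, chr5:1801257-1801406, plus strand): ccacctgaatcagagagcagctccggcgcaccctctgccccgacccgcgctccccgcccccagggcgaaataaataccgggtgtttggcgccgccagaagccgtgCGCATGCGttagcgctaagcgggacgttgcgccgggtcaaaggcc
The NRF1 core begins 21 bases upstream of the start in ATP5C1, 77 in ATP5I and 45 in NDUFS6, and the ETS core 18 bases upstream in COX8A. At least 1 of the NRF1, ETS and YY1 cores was found in 40 of the 79 windows (50.6%), beside 21.2% of all windows. The ATP5G1 window held none of them, like the remaining member windows. ATP5G1 had the widest difference of all 79 tested genes in each replicate. No link between cores and differences was tested.

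Within the c ring of ATP synthase, 3 genes encode the same mature protein behind different import signals. ATP5G1 stood at 20.5 and 70.5 RPKM in the ISL1 libraries of replicates 1 and 2, against 11.6 and 214 RPKM in the blank libraries. The ISL1 library was thus higher in replicate 1 (ratio 1.77, 95% counting interval 1.52 to 2.06) and lower in replicate 2 (ratio 0.329, interval 0.310 to 0.350). ATP5G2 stood at 13.3 and 161 RPKM with ISL1, against 9.52 and 180 RPKM with blank virus, the same lean with smaller differences of 0.44 and -0.16. ATP5G3, at 1.43 and 86.9 RPKM against 0.937 and 115.5 RPKM, again stood higher in replicate 1 and lower in replicate 2. The intervals printed for ratios rest on the smallest read numbers that the RPKM steps allow, and cover counting error only.

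In the catalytic F1 head, ATP5B, the beta subunit that makes ATP, was the most abundant complex V transcript. It stood at 585 and 393 RPKM in the ISL1 libraries, against 515 and 632 RPKM in the blank libraries. Its ratio was 1.14 in replicate 1 (interval 1.12 to 1.15) and 0.621 in replicate 2 (interval 0.611 to 0.632), so the groups overlapped. ATP5E, the small epsilon subunit, stood at 167 and 552 RPKM with ISL1, against 104 and 605 RPKM with blank virus, the second largest difference of complex V in replicate 1 (0.67). ATP5A1, the alpha subunit that pairs with beta, stood at 0.119 and 164 RPKM with ISL1, against 0.246 and 253 RPKM with blank virus. It was lower with ISL1 in both replicates, but rested on at least 10 and 18 reads in replicate 1. ATP5C1 (gamma, the rotating shaft) and ATP5D (delta) had differences of 0.10 and 0.24 in replicate 1 and of -0.57 and -0.18 in replicate 2. The 5 F1 genes had median differences of 0.18 and -0.57.

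The stalk that holds the head against the membrane part includes ATP5O, the oligomycin sensitivity-conferring protein. ATP5O stood at 130 and 96.2 RPKM in the ISL1 libraries, against 122 and 183 RPKM in the blank libraries. The difference thus lay in replicate 2 (ratio 0.526, interval 0.5005 to 0.552), while replicate 1 differed little (ratio 1.07). Without the second ISL1 library its pooled log2 fold change was -0.20 and without the second blank library -0.12, against -0.41 with all 4. The other 3 stalk genes, ATP5F1, ATP5H and ATP5J, were higher with ISL1 in replicate 1 by 0.16 to 0.45 and lower in replicate 2 by 0.32 to 0.41. ATP5I and ATP5L, subunits e and g of the membrane part, stood 0.42 and 0.49 higher in replicate 1 and 0.33 and 0.10 lower in replicate 2. ATP5J2, subunit f, was counted from at least 1 read in each library of replicate 1 but stood at 327 RPKM with ISL1 and 334 RPKM with blank virus in replicate 2.

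**Figure D3:**
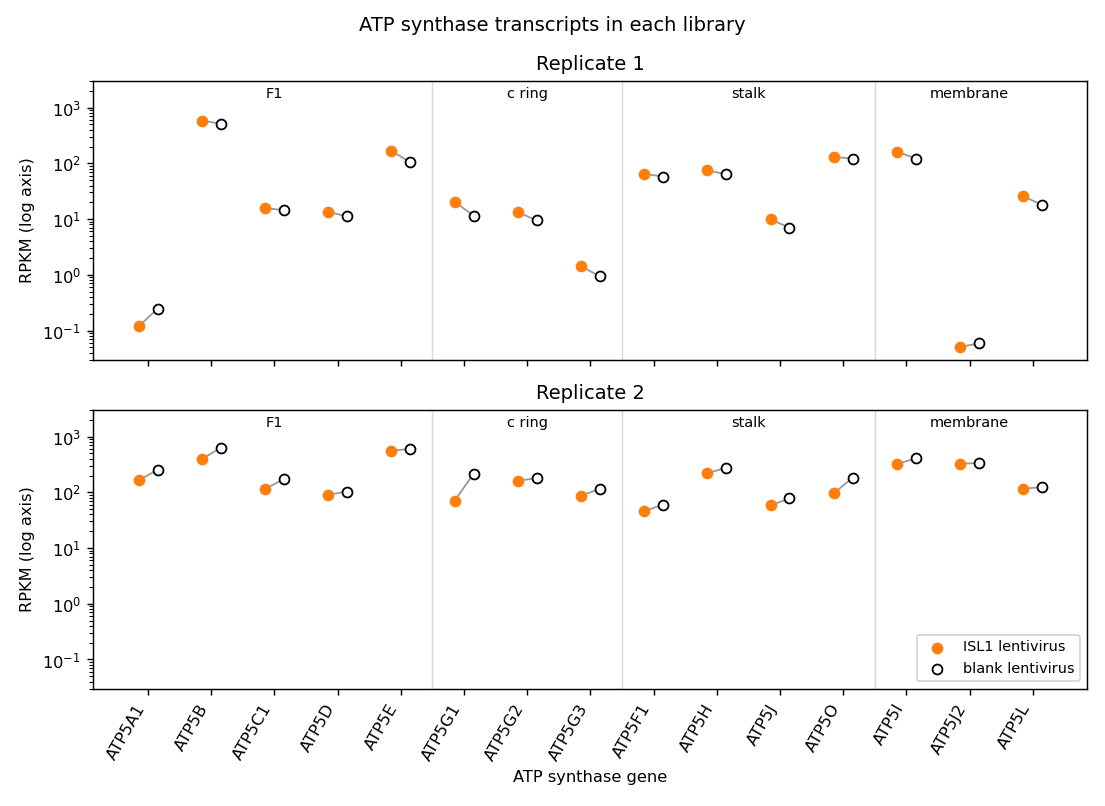
RPKM (log axis) of 15 ATP synthase subunit genes in each of the 4 libraries, replicate 1 above and replicate 2 below, with the ISL1 library (orange) left of the blank library (open) for each gene. In replicate 2 each orange point is at or below its open neighbour, with the widest gap for ATP5G1 (70.5 and 214 RPKM), while in replicate 1 most orange points are above theirs.

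Among the 12 complex V genes with a mean of at least 5 RPKM in each replicate, a limit chosen after the values were seen, 12 stood higher with ISL1 in replicate 1 and 12 lower in replicate 2. Over all genes that meet the limit, 52.3% were higher and 47.7% lower in replicate 1, and 54.1% were higher and 45.9% lower in replicate 2. Summed over its 18 symbols, complex V made up 0.516% and 0.583% of all RPKM in the ISL1 libraries, against 0.424% and 0.797% in the blank libraries. The ratio of the sums, ISL1 over blank, was 1.22 in replicate 1 and 0.757 in replicate 2. An exact permutation test over the 4 libraries gave p = 1 (two-sided; 2 libraries against 2 cannot give less than 0.33), and it did so for each of the other complexes too. Of the symbols that match by name alone, ATP5S (now DMAC2L) and ATP5SL (now DMAC2) are not subunits, and ATP5J2-PTCD1 is a readthrough whose reads cannot be told from those of ATP5J2. ATP5J2-PTCD1 was the only complex V symbol higher with ISL1 in replicate 2, at 6.74 RPKM against 5.04 RPKM.

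Complex I, the NADH dehydrogenase, had median differences of 0.20 in replicate 1 (28 of 38 genes higher) and 0.02 in replicate 2 (18 of 38 lower). The sign in replicate 2 turned negative with median-ratio scaling (-0.18, 29 of 38 lower) and with rescaling of the libraries to equal sums (-0.03). The 7 core subunits, which carry the flavin and the iron-sulfur clusters, had medians of -0.05 and -0.25. The 31 other symbols, called accessory here, had medians of 0.26 and 0.02. They include NDUFA4 and NDUFA4L2, which are counted under complex I by their older symbols. Whether the 2 groups differ was not tested. NDUFS1, the largest iron-sulfur subunit, stood at 0.178 and 56.9 RPKM in the ISL1 libraries, against 0.0535 and 112 RPKM in the blank libraries. Its replicate 1 values rest on at least 23 and 6 reads, and in replicate 2 the ISL1 library was lower (ratio 0.507, interval 0.492 to 0.523). NDUFV1, which binds NADH, stood at 12.4 and 194.5 RPKM with ISL1 and 10.4 and 261 RPKM with blank virus, the same lean as ATP synthase. NDUFV2, its iron-sulfur partner, was lower in both ISL1 libraries, at 134 and 117 RPKM against 148 and 139 RPKM, by 0.14 and 0.25. NDUFS8, which carries clusters on the way to ubiquinone, had differences of -0.05 and 0.37.

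Among the accessory subunits of the membrane arm, NDUFB2 and NDUFB1 had the largest differences of complex I in replicate 1. NDUFB2 stood at 122 and 107 RPKM with ISL1 and at 73.2 and 153 RPKM with blank virus. NDUFB1 stood at 75.4 and 53.1 RPKM with ISL1, against 50.1 and 71.2 RPKM with blank virus. Both were therefore higher in replicate 1 (ratios 1.66 and 1.503) and lower in replicate 2 (ratios 0.699 and 0.747). NDUFB10, also of the membrane arm, stood at 51.9 and 74.5 RPKM in the ISL1 libraries, against 46.7 and 50.04 RPKM in the blank libraries, with no overlap of the groups. Its ratios were 1.11 (interval 1.03 to 1.20) and 1.49 (interval 1.38 to 1.60), and without the second ISL1 library its pooled log2 fold change was 0.10 instead of 0.36. NDUFA3 stood at 46.8 and 128 RPKM against 37.4 and 91.6 RPKM, higher by 0.32 and 0.48 within the replicates. NDUFA8, which faces the intermembrane space, stood at 38.03 and 31.5 RPKM with ISL1 and at 32.4 and 53.4 RPKM with blank virus, 0.22 higher and then 0.74 lower.

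NDUFS6, a zinc-binding accessory subunit of the matrix arm, stood at 79.4 and 57.8 RPKM in the ISL1 libraries, against 52.9 and 54.2 RPKM in the blank libraries. The groups did not overlap, but the difference came from replicate 1 (0.58, with a ratio interval of 1.38 to 1.63), and the ratio in replicate 2 was 1.07 (interval 0.976 to 1.17). Without the first ISL1 library its pooled log2 fold change was 0.11 instead of 0.33. NDUFA13, the most abundant complex I transcript, stood at 225 and 333 RPKM with ISL1 and at 191 and 383 RPKM with blank virus, leaning as ATP synthase did. NDUFA11 was lower with ISL1 in both replicates, at 0.931 and 119 RPKM against 1.33 and 138 RPKM. NDUFA4, now assigned to complex IV under the RefSeq symbol COXFA4 but kept here under complex I by its older symbol, stood at 86.5 and 74.6 RPKM against 62.8 and 114 RPKM. Its hypoxia-induced relative NDUFA4L2 stayed near 1 RPKM, at 0.697 and 1.07 RPKM against 1.17 and 0.641 RPKM.

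Complex II, succinate dehydrogenase, also belongs to the TCA cycle. SDHA, the flavoprotein that oxidizes succinate, stood at 39.8 and 73.7 RPKM in the ISL1 libraries, against 30.4 and 65.2 RPKM in the blank libraries. It was higher with ISL1 in both replicates, by 0.38 and 0.17. SDHB, the iron-sulfur subunit, stood at 42.3 and 73.3 RPKM with ISL1 and at 45.5 and 69.3 RPKM with blank virus, with differences of -0.10 and 0.08. SDHC, a membrane anchor, stood at 1.16 and 17.1 RPKM with ISL1 and at 0.986 and 37.97 RPKM with blank virus. Its ratio in replicate 2 was 0.451 (interval 0.424 to 0.480), the only complex II difference past 1.5-fold. SDHD, the other anchor, was listed in replicate 2 only, at 49.9 RPKM with ISL1 and 57.1 RPKM with blank virus.

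Complex III, the cytochrome bc1 complex, had 6 of 9 genes higher in replicate 1 and 7 of 9 lower in replicate 2 (medians 0.16 and -0.28). UQCR10 and UQCRQ, small membrane subunits, had the largest differences of complex III in replicate 1. UQCR10 stood at 14.6 and 59.0 RPKM in the ISL1 libraries, against 9.45 and 70.6 RPKM in the blank libraries. UQCRQ stood at 29.8 and 43.9 RPKM against 22.6 and 43.1 RPKM, higher by 0.38 in replicate 1 and by 0.02 in replicate 2, a sign lost under both other scalings, which left no complex III gene higher in both. UQCR11, another small subunit, stood at 64.6 and 58.2 RPKM with ISL1 and at 57.6 and 104 RPKM with blank virus, with a ratio of 0.559 in replicate 2 (interval 0.532 to 0.588). The core proteins differed from each other: UQCRC1 stood at 85.2 and 76.6 RPKM against 73.1 and 105 RPKM, higher and then lower. UQCRC2 stood at 62.7 and 62.3 RPKM in the ISL1 libraries and at 68.8 and 75.5 RPKM in the blank ones, lower in both. UQCRFS1, the Rieske iron-sulfur protein, was lower in both as well, at 83.2 and 81.7 RPKM against 95.9 and 89.4 RPKM. UQCRH, the hinge protein that docks cytochrome c1, was the most abundant at 186.5 and 277 RPKM against 148 and 357 RPKM. UQCRHL is a near-identical copy of UQCRH and their reads may be split or shared, so its values (28.5 RPKM with ISL1 and 36.7 RPKM with blank virus in replicate 2) are uncertain. UQCRB was near 0 in replicate 1, with at least 14 and 24 reads, and stood at 40.6 RPKM with ISL1 and 35.6 RPKM with blank virus in replicate 2.

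Complex IV, cytochrome c oxidase, had 7 of 11 tested genes higher in replicate 1 and 7 of 11 lower in replicate 2 (medians 0.11 and -0.08). COX6B1, which lies on the intermembrane face, stood at 249 and 340 RPKM in the ISL1 libraries, against 162 and 382 RPKM in the blank libraries, a ratio of 1.54 in replicate 1 (interval 1.45 to 1.64) and 0.890 in replicate 2. COX8A, the small subunit whose upstream stretch holds an ETS core, stood at 167 and 241 RPKM against 121 and 216 RPKM. Of the 11 tested complex IV genes COX8A alone was higher with ISL1 in both replicates, by 0.46 and 0.15. COX7A1 was not tested, and in replicate 1 it stood at 0.0344 RPKM with ISL1 and 0 with blank virus. In that ISL1 library 3 reads in a transcript of 1 kb are worth 0.0808 RPKM, so no direction can be read for COX7A1 there. COX7A2L, which joins complexes III and IV in supercomplexes, ran against the lean of the group, at 49.9 and 113 RPKM with ISL1 and 79.5 and 90.0 RPKM with blank virus (ratios 0.628 and 1.26). COX4I1, the regulatory subunit that binds adenine nucleotides, went the same way, at 212 and 282 RPKM against 256 and 245 RPKM. COX6A1 stood at 208 and 486 RPKM with ISL1 and at 208 and 354 RPKM with blank virus, level in replicate 1 and 0.45 higher in replicate 2. COX7A2 stood at 43.3 and 196 RPKM with ISL1 and at 35.4 and 334 RPKM with blank virus, with a ratio of 0.587 in replicate 2, the lowest of the 11 tested complex IV genes there. COX5B, which binds zinc, was lower in both, at 212 and 217 RPKM against 220 and 269 RPKM. COX7C, the most abundant, stood at 329 and 405 RPKM against 280 and 469 RPKM.

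Genes for the tissue isoforms of cytochrome c oxidase stood at low levels, under 2.5 RPKM in each library that listed them, beside the ubiquitous or liver forms above. In replicate 2, where 3 reads in a transcript of 1 kb are worth 0.102 RPKM in the ISL1 library and 0.0875 RPKM in the blank library, COX7A1, the heart and muscle form, stood at 1.04 RPKM with ISL1 and 0.149 RPKM with blank virus. COX6A2, also a muscle form, stood at 0.462 RPKM with ISL1 and was listed at 0 with blank virus. COX4I2, known from lung, went the other way, at 0.0994 RPKM with ISL1 and 0.555 RPKM with blank virus. COX6B2, known from testis, stood at 2.35 RPKM with ISL1 and 0.886 RPKM with blank virus. In replicate 1 COX7A1 and COX6B2 were under 0.25 RPKM in both libraries, and COX6A2 and COX4I2 were not listed. COX7B2 and COX8C were not analysed here.

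The level of some members differed widely between the tables of replicate 1 and replicate 2. Over the 81 genes in all 4 tables, 14 had a mean under 5 RPKM in replicate 1 and of 10 RPKM or more in replicate 2, among them ATP5A1, ATP5J2, NDUFS1, SDHC and UQCRB. These 14 had a median of 4 RefSeq transcripts per gene, against 2 for the other 67. For the 29 genes with 1 RefSeq transcript, the median over genes of the log2 difference in level, replicate 1 minus replicate 2, was -0.40. That median was -1.83 for the 17 genes with 2 transcripts and -2.48 for the 35 with 3 or more. Among the tested subunits with 1 transcript, 22 of 28 were higher with ISL1 in replicate 1 and 21 of 28 lower in replicate 2. Their medians were 0.16 and -0.23, beside 0.00 and 0.10 over all tested genes with 1 transcript. Whether the number of transcripts bears on the lean was not tested.

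**Figure D4:**
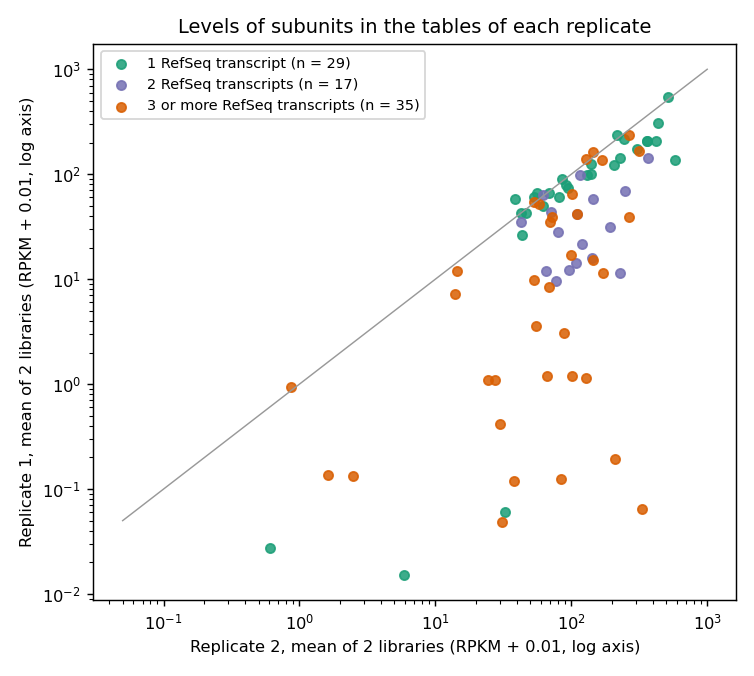
Mean RPKM + 0.01 of the 2 libraries of replicate 2 (horizontal) and replicate 1 (vertical), both on log axes, for the 81 genes listed in all 4 tables, coloured by number of RefSeq transcripts; the grey line marks equal levels. Genes with 1 transcript (n = 29) lie mostly near the line, and most of those far below it have 3 or more (n = 35).

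By recovered length most subunit transcripts were short. Lengths were compared over tested genes with a mean of at least 5 RPKM in that replicate and a recovered length of at least 200 bases. Among these genes the difference in replicate 1 was larger for short transcripts than for long ones. These lengths can be too short by a whole factor. Of 79 members with a length in both replicates, 40 had the same one in each. Over all genes within both limits, transcripts of up to 1000 bases had a median difference of 0.12 in replicate 1 and 0.11 in replicate 2. Longer ones had 0.01 and 0.06. Among subunits within both limits, those of up to 1000 bases had medians of 0.25 (42 genes) and -0.17 (44 genes). The longer ones had 0.17 (18 genes) and -0.16 (31 genes). Whether transcript length bears on the lean of the subunits was not tested.

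**Figure D5:**
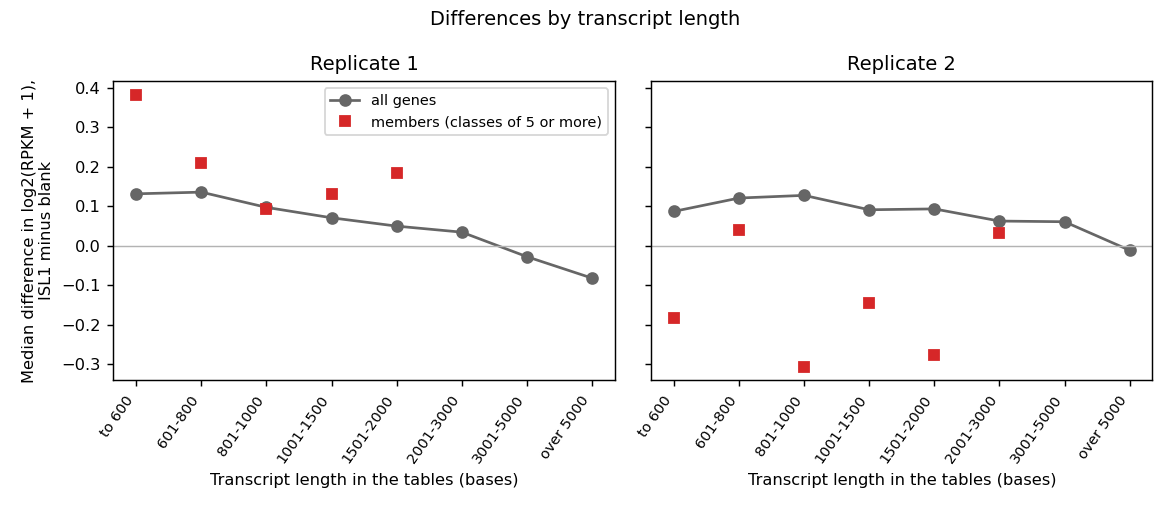
Median difference in log2(RPKM + 1), ISL1 minus blank, by recovered transcript length, in replicate 1 (left) and replicate 2 (right). Grey marks all tested genes with a mean of at least 5 RPKM in that replicate and a recovered length of at least 200 bases. Red marks the subunits among them, in classes that hold at least 5 subunits. Recovered lengths can be too short by a whole factor. In replicate 1 the red squares lie above the grey line in 4 of 5 classes (0.38, 0.21, 0.09, 0.13 and 0.18 from the shortest class up), while in replicate 2 all red squares lie below the grey line.

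Markers of hepatocytes, which this hepatoma line expresses, and markers of other cell types also differed in replicate 2. The 8 hepatocyte markers, headed by ALB and AFP, summed to 20005 and 9605 RPKM in the ISL1 libraries, against 20150 and 21793 RPKM in the blank libraries. In replicate 2, 8 of 8 were past 1.5-fold lower, beside 12.3% of all tested genes. The 7 erythroid markers summed to 1.399 RPKM in the second ISL1 library, where 4 were listed at 0. In the second blank library they summed to 1003 RPKM, mostly the globin genes HBB, HBA1 and HBA2. Replicate 1 listed only HBB of these, at 0 RPKM with ISL1 and 0.0495 RPKM with blank virus. The 10 heart and striated muscle markers summed to 72.2 RPKM with ISL1 in replicate 2 and 11.9 RPKM with blank virus (3 at 0), and in replicate 1 the 7 listed summed to 5.87 and 13.3 RPKM. Stroma markers summed to 103 and 171 RPKM in the ISL1 libraries, against 141 and 100.3 RPKM in the blank libraries. Most of that was VIM alone, at 100 and 159 RPKM against 139 and 93.5 RPKM. Leukocyte markers summed to 50.3 and 99.7 RPKM against 53.6 and 117 RPKM, mostly LYZ and CD68. PTPRC, listed in replicate 2 only, stood at 0.0280 RPKM with ISL1 and 0.0843 RPKM with blank virus. The labels name a single cell line and no mixture of cell types. In bulk samples fewer cells of a type and less RNA per cell cannot be told apart. The part of these differences in those of the subunits was not tested.

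The other genes of the pathway gave the following, with 0 called by limma in each list. Assembly factors build the complexes but are not part of them. Of 32 tested (43 on the list), 18 were higher in replicate 1 and 19 lower in replicate 2, with medians of 0.03 and -0.14. Of all tested genes, 49.4% were higher in replicate 1 and 45.4% lower in replicate 2. Higher in both replicates were 9 of the 32 assembly factors and lower in both 10, beside 23.1% and 19.1% of all tested genes. NDUFAF4, a complex I assembly factor, stood at 12.8 and 10.6 RPKM with ISL1 and at 10.8 and 6.12 RPKM with blank virus. TMEM70, which serves ATP synthase assembly, stood at 1.02 and 13.01 RPKM against 0.764 and 7.92 RPKM, and both genes were higher within each replicate. COX19 and SURF1 were lower within each, by 0.50 and 0.28 and by 0.19 and 0.57. Of 18 TCA cycle genes, 12 were higher in replicate 1 and 14 lower in replicate 2, beside the same shares of all tested genes, with medians of 0.11 and -0.23. SUCLG1, a succinyl-CoA ligase subunit, was lower in both, at 58.8 and 76.0 RPKM with ISL1 and 62.4 and 131 RPKM with blank virus. The 16 genes of electron carriers and coenzyme Q synthesis had medians of 0.08 and -0.18, and 8 tested membrane carriers and porins (9 on the list) 0.25 and -0.14. Of 5 subunits that the symbols miss, ATPIF1, the inhibitor of ATP synthase, was higher in both, at 18.1 and 70.8 RPKM against 13.2 and 49.6 RPKM, and the other 4, CYC1 among them, were lower in replicate 2. The 16 tested regulators of mitochondrial biogenesis (18 on the list) had positive medians in both, 0.08 and 0.40. Among them GABPB1, a subunit of GABP, stood at 0.140 and 35.7 RPKM with ISL1, against 0.0505 and 14.9 RPKM with blank virus, and NRF1 at 0.167 and 4.73 RPKM against 0.105 and 5.86 RPKM. No difference between these lists and the subunits was tested. The 13 subunits encoded in mitochondrial DNA were not analysed here.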

How the data were processed

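Each library has a table of RPKM values by gene symbol, deposited by the authors. The submitters' processing notes name CASAVA 1.4, BWA and hg19 as build. Neither annotation, counting program, strand setting nor the treatment of reads that match several places is given in the sources used here, so members with pseudogenes or overlapping partners are less certain. The members and lists were chosen with earlier results of these data known. Of the members, those described with all 4 values are the 2 largest and 2 smallest differences per complex and replicate, complex II, isoform sets and the highest of each complex; others were chosen after their values were seen.

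Tables were joined by symbol, keeping genes listed in all 4 that reached 1 RPKM in 2 or more libraries. limma 3.58.1 (R 4.3.3; lmFit, eBayes with trend) compared the 2 ISL1 with the 2 blank libraries on log2(RPKM + 1) by a two-sided test, adjusted over all 11085 genes after Benjamini and Hochberg (threshold 0.05). Differences within a replicate number have 1 library per group and no test; a call there is a difference past 1.5-fold. Depth and smallest read numbers came from ratios of low RPKM values: 99.9% of genes under 2 RPKM in replicate 1 and 92.2% in replicate 2 had a ratio of 2 whole numbers no larger than 500 (relative tolerance 1e-08). Recovered lengths can be too short by a whole factor, and no count model was fitted. These steps were tested on simulated data. Intervals are 95%, from those reads, and cover counting error only. Promoter sequences and transcript numbers are from RefSeq (GRCh38.p14), matched by symbol; the files' build differs, so no coordinate was moved between builds. The replicate 1 tables hold 0.0001 in place of 0, read as 0. Summaries and plots used pandas 2.3.3 with NumPy 2.4.6, matplotlib 3.10.9 and SciPy 1.17.1 under Python 3.11.15. Other pseudocounts, filters and scalings, a replicate block and leaving out each library were tried.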

Additional observations from a re-analysis of the deposited data

How the results depend on the processing

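Of 340 values recomputed under alternatives, 8 changed sign. Most of the 340 were counts, which cannot change sign, so the 8 fell among the medians, fold changes and summed differences. Single values moved within the same sign: leaving out 1 library gave pooled log2 fold changes of -0.70 to -0.12 for ATP5O, 0.10 to 0.61 for NDUFB10 and 0.11 to 0.56 for NDUFS6. The medians of all members and of complexes III, IV and V kept their sign in both replicates under every alternative run. In replicate 2 the median of complex I was -0.18 with median-ratio scaling, -0.032 with rescaling to equal sums and -0.025 over members with a mean of 5 RPKM in each replicate, a limit added after seeing the data. That of complex II was -0.12, 0.031 and 0.13 in the same order. In replicate 1 the complex II median was 0.21 with a pseudocount of 0.1, 0.22 with median-ratio scaling and 0.19 rescaled. The complex IV median in replicate 1, 0.11, was 0.049 with no filter and 0.23 with median-ratio scaling, and in replicate 2, where it was -0.079, it was -0.28 with median-ratio scaling, -0.13 rescaled and -0.12 without symbols that match by name only. Median-ratio scaling left 8 members higher in both replicates; the limit of 5 RPKM left 4 lower in both. The pooled log2 difference of summed levels, near 0 throughout, was -0.022 and -0.0020 for complex II and -0.023 and -0.0032 for complex IV with median-ratio scaling and rescaling. In each case the cause was not tested. The replicate block called 0 genes, as did the fit without it, and 260 genes had an unadjusted p under 0.05 with the block against 15 without. Leaving out each library in turn called 0 genes, with 0 to 23 at an unadjusted p under 0.05 (0 without the first blank library); the group left with 1 library was taken to vary like the other. Unadjusted counts were 34 with no filter, 2 with median-ratio scaling and 6 rescaled. The members near 0 in replicate 1 rest on few reads there, at total depths much like those of replicate 2.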
